A study of Mus musculus with 6 samples.

Results

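The genes described are 9 that mark the fixed framework of the spleen rather than its blood cells: the transcription factors Tcf21, Tlx1, Nkx2-3 and Wt1, the endothelial genes Kdr, Pecam1 and Cdh5, and Madcam1 and Lyve1, which mark particular vessel linings. They were taken by name, as every probe set whose platform gene symbol equals 1 of the 9. That gave 14 of the 45037 probe sets tested and 9 of the 18193 genes with a symbol of their own. Whole spleens of Balb/c mice, 6 to 8 weeks old and labelled female, were compared between 3 animals without treatment and 3 given perfluorooctane sulfonate (PFOS), a persistent fluorinated surfactant. The PFOS group received 10 mg per kg body weight each day for 3 weeks by intragastric administration, and the labels name no vehicle for the controls. Each spleen was measured on 1 Affymetrix Mouse430_2 array, and the deposited values are log2 levels from RMA, a method that gives all arrays a like distribution. Each change is therefore relative to the whole array, and levels of different probe sets cannot be set against each other.

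In the mouse embryo the spleen arises from a mesenchymal condensation that needs Tlx1, Nkx2-3, Tcf21 and Wt1, and loss of any of these factors leaves the organ absent, small or misbuilt. In the adult organ such genes belong to rare stromal cells, which make reticular fibres and attract lymphocytes, while endothelial cells line the central arterioles, the marginal sinus and the red pulp sinusoids. Both are small fractions of a whole spleen, so their transcripts share each array with a large excess of blood cell RNA. In whole tissue, fewer cells of a type and less RNA per cell cannot be told apart.

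The array correlations lay between 0.9987 and 0.9991 within a group and between 0.987 and 0.988 across groups. The animals are labelled female, but the Y-linked genes Eif2s3y (9.62 to 9.91 over the 6 arrays) and Kdm5d (7.54 to 7.94) were well above the level of 5.62 under which the lowest 40% of probe sets lay. Xist, at its probe set with the highest mean, read 5.62 to 5.86, at or just above that level. This held in both groups, so the label is in doubt for all 6 arrays. In level, Eif2s3y (0.18 ± 0.05) and Kdm5d (0.21 ± 0.06) were called higher in PFOS, and another Kdm5d probe set was called the opposite way. No detection calls were used. At the probe set with the highest mean, here called the brightest, 8 of the 9 genes lay above 5.62 in every array and Lyve1 below it in every array.

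For Tcf21, Tlx1, Kdr and Madcam1, a promoter sequence was at hand from RefSeq (build GRCm38.p6), which matched 5 of the 9 genes, the other being Nkx2-3. The 250 bases before each start site are shown because the first 3 of these genes rose most among those with a sequence, while Madcam1 rose least of the 4. Capitals mark any of 5 motifs on either strand: the CCAAT box of general promoter factors, the GC box GGGCGG of Sp1-type factors, the stretch GGGAAAG that occurs in many NF-kB sites, the form TNAAGTG bound by NKX2 homeodomains, and the TATA box as TATAAA. The motifs were chosen after the sequences had been seen.
Tcf21 (chr10:22820144-22820393, minus strand): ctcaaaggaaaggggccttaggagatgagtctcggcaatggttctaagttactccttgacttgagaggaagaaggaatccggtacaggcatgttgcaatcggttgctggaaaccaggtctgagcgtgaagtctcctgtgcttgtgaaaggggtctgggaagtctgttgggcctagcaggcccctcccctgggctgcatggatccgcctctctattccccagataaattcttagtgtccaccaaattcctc
Tlx1 (chr19:45150465-45150714, plus strand): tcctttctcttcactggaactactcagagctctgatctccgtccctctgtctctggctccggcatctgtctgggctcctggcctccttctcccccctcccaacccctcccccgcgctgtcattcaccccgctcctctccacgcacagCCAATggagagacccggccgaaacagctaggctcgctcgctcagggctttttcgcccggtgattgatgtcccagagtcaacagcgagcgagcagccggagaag
Kdr (chr5:75978456-75978705, minus strand): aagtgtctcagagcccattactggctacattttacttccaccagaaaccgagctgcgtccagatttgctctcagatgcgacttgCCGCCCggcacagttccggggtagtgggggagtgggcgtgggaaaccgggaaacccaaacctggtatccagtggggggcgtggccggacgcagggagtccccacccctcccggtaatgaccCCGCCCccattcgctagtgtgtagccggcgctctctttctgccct
Madcam1 (chr10:79664309-79664558, plus strand): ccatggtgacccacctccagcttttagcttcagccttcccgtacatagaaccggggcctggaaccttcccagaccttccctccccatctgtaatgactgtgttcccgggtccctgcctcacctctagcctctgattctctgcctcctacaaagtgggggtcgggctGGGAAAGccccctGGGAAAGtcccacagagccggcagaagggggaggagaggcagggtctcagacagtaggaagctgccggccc

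No motif was shared by these 4 windows, with bases counted back from -1, the base before the start site. CCAAT stood at -103 to -99 in Tlx1, and GGGCGG stood on the minus strand at -45 to -40 and at -166 to -161 in Kdr. Madcam1 held GGGAAAG in a pair at -84 to -78 and -71 to -65. No motif of the 5 matched the Tcf21 window. Nkx2-3, not printed, held CCAAT on both strands in copies that overlap between -105 and -98, and GGGCGG once on the minus strand at -75 to -70. Over all 32851 promoter windows of this length, CCAAT was in 33.8%, GGGCGG in 32.7%, TATAAA in 12.4%, TNAAGTG in 10.1% and GGGAAAG in 8.11%. A match is a run of letters and was not tested as a binding site.

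In the deposited values most of these genes were slightly higher in PFOS spleens, and none reached a 2-fold change. At the brightest probe set of each gene, 6 of 9 were called higher (limma, Benjamini-Hochberg adjusted p under 0.05 over all probe sets) and 0 lower, where 32.9% of all genes were called higher and 20.0% lower. Scaled on ribosomal protein genes, 5 of the 9 were called higher and 1 lower, beside 16.5% and 35.1% of all genes. Scaled on labelling controls, 9 of 9 were called higher, as were 92.5% of all genes, with 4.56% lower. The count of lower genes in the deposited values was also 0 at an unadjusted limma p under 0.05. Over all 14 probe sets, 8 were called higher and 1 lower, against 30.2% and 19.3% of all probe sets. The median change of the 9 genes was 0.22 on the log2 scale, beside 0.05 for all genes and 0.23 for all genes called higher. All 3 PFOS arrays lay above all 3 control arrays for 7 of the 9 genes, as they did for 38.8% of all genes. The largest rises were those of Tcf21 (1.41-fold), Pecam1 (1.37-fold), Kdr (1.30-fold) and Tlx1 (1.28-fold), and Cdh5 stood at 0.99-fold.

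**Figure D1:**
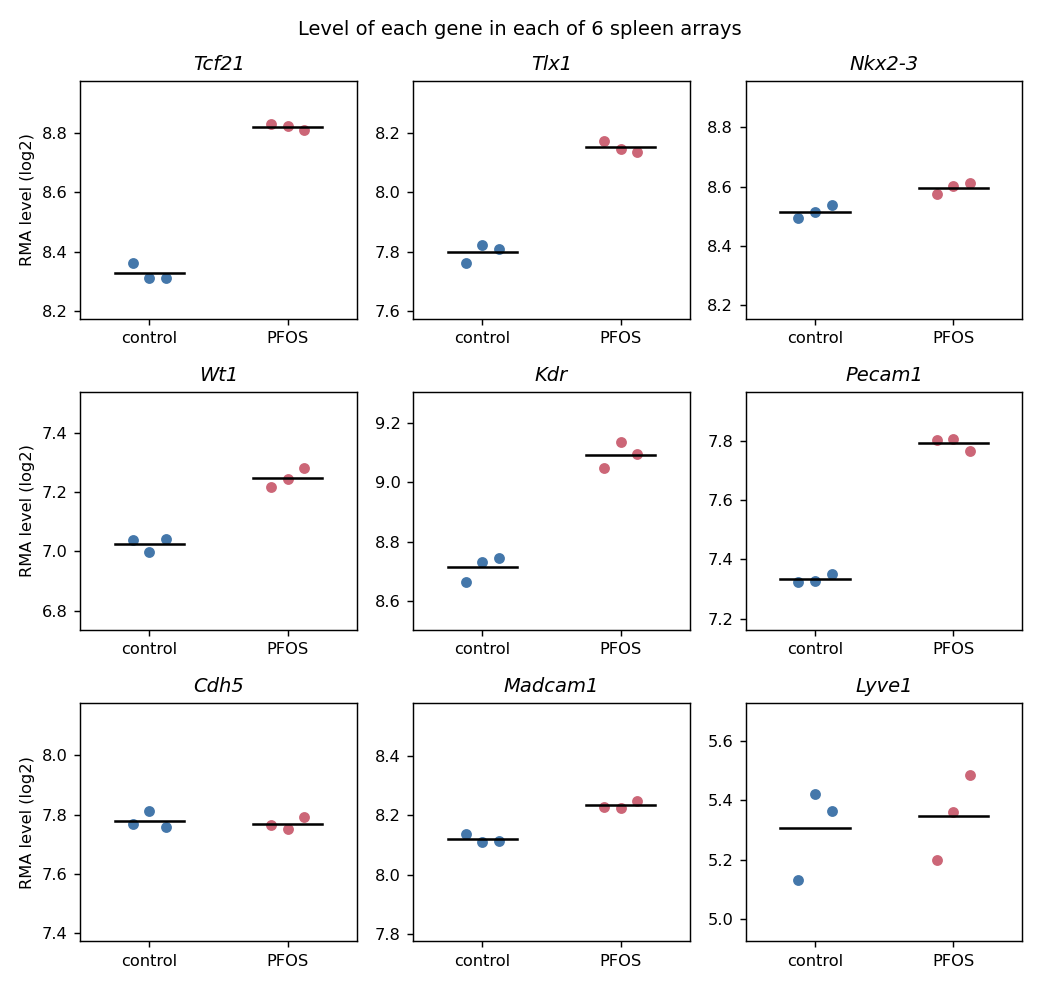
RMA log2 level (vertical axis, the same height in log2 units in each panel) of each of the 9 genes at its brightest probe set, in 3 control (blue) and 3 PFOS (red) arrays; bars are group means. In these deposited values the groups are apart for 7 genes, by the widest gap for Tcf21 (0.45) and Pecam1 (0.41), and overlap for Cdh5 and Lyve1.

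Among the organ factors, Tcf21, a basic helix-loop-helix factor of mesenchymal cells, moved most. Its brightest probe set (1417447_at) read 8.36, 8.31 and 8.31 in the control arrays and 8.83, 8.82 and 8.81 in the PFOS arrays. The 3 PFOS values were high, and the gap between the groups exceeded the range within either. The change was 0.49 ± 0.03 (limma SE, n = 3 per group; limma adjusted p = 1.6e-05), and 319 of 18193 genes rose more. A dimmer second probe set (1458887_at) read 5.59, 5.71 and 5.69 in control and 5.75, 5.94 and 5.98 in PFOS. It went the same way by less, at 0.23 ± 0.06 (limma adjusted p = 0.0204). That second call was lost without control replicate 1, PFOS replicate 2 or PFOS replicate 3, with limma adjusted p of 0.0657, 0.0654 and 0.0661, and with ribosomal protein scaling (0.13, limma adjusted p = 0.162).

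Tlx1, the homeobox factor whose loss leaves mice without a spleen, has a single probe set. It read 7.76, 7.82 and 7.81 in control and 8.17, 8.15 and 8.13 in PFOS. The groups were 0.31 apart at their nearest arrays. The change was 0.35 ± 0.03 (limma adjusted p = 0.000103), and 1113 genes rose more.

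Wt1, a zinc finger factor of mesothelium and early spleen mesenchyme, also has a single probe set, which read 7.04, 7.00 and 7.04 in control and 7.22, 7.24 and 7.28 in PFOS. The PFOS arrays were again all higher, by at least 0.17. The change was 0.22 ± 0.03 (limma adjusted p = 0.00126), close to the median of all genes called higher. The probe set ends in _s_at, a class whose probes can match more than 1 transcript.

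Nkx2-3, a homeobox factor of spleen and gut mesenchyme that Madcam1 expression requires in mice, gave 3 different readings. The brightest probe set (1425827_at) read 8.49, 8.51 and 8.54 in control and 8.57, 8.60 and 8.61 in PFOS. The groups did not overlap, but the nearest arrays were only 0.04 apart. The change of 0.08 ± 0.03 was not called (limma adjusted p = 0.0681). It passed with the filter on low values (limma adjusted p = 0.0328), with quantile normalization (0.0375) and with trend and robust priors (0.0288), and its sign turned with ribosomal protein scaling (-0.02). The second probe set (1452528_a_at) read 5.95, 5.82 and 5.88 against 6.02, 6.02 and 6.01, a change of 0.13 ± 0.04 (limma adjusted p = 0.0293). Leaving out control replicate 2, control replicate 3 or any PFOS replicate took this call away, with limma adjusted p from 0.0634 to 0.0893. It was also lost with quantile normalization (limma adjusted p = 0.0526), with trend and robust priors (0.0514) and with ribosomal protein scaling (0.03, limma adjusted p = 0.578). The third (1427741_x_at), under the 40th percentile of all probe sets, changed by -0.08 ± 0.04 (limma adjusted p = 0.182), with overlapping groups.

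**Figure D2:**
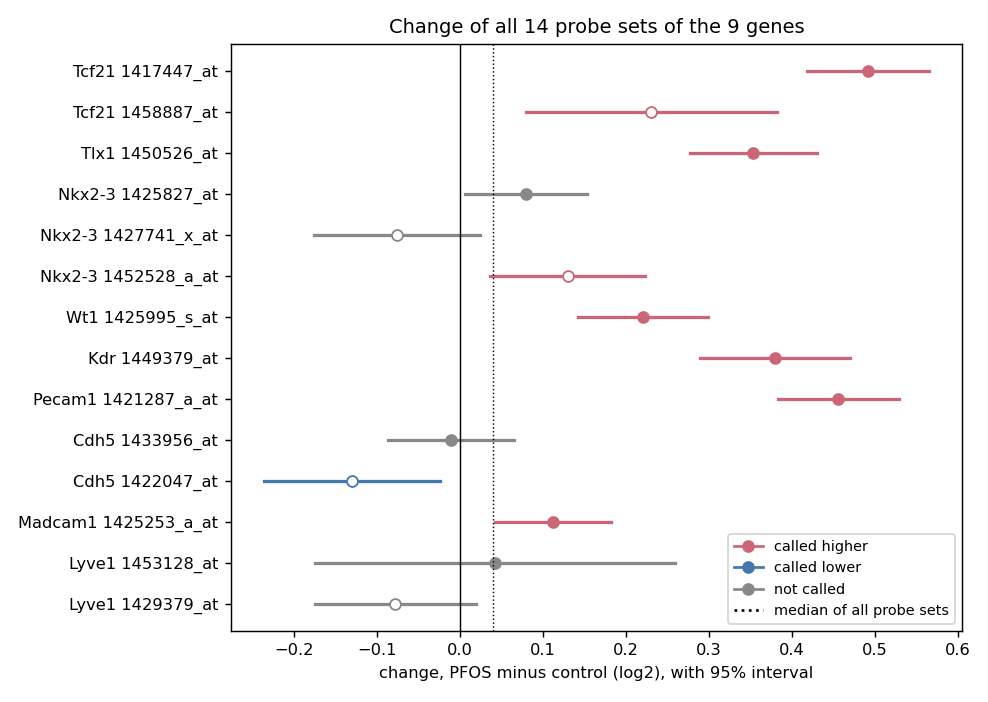
Change on the log2 scale (PFOS minus control, horizontal axis) of all 14 probe sets, with limma's 95% interval. Filled points are the brightest probe set of a gene, open points the others, red was called higher, blue lower and grey not called. At the brightest probe sets of Tcf21, Pecam1, Kdr and Tlx1, the lower bounds run from 0.28 (Tlx1) to 0.42 (Tcf21).

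The endothelial genes did not move as a block. Pecam1 encodes CD31, an adhesion protein of endothelial junctions that platelets and many leukocytes also carry. It read 7.32, 7.33 and 7.35 in control and 7.80, 7.81 and 7.76 in PFOS. The spread within a group was small beside the gap of 0.41 between the groups. The change was 0.46 ± 0.03 (limma adjusted p = 2.14e-05).

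Kdr, the main signalling receptor for VEGF on blood vessel endothelium, read 8.67, 8.73 and 8.75 in control and 9.05, 9.14 and 9.09 in PFOS. All PFOS arrays were high, at least 0.30 above the highest control. The change was 0.38 ± 0.04 (limma adjusted p = 0.000173).

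Cdh5, the VE-cadherin that holds endothelial cells together and the marker among the 3 most restricted to endothelium, did not pass at its brightest probe set (1433956_at). It read 7.77, 7.81 and 7.76 in control and 7.76, 7.75 and 7.79 in PFOS, so that the groups overlapped. The change was -0.01 ± 0.03 with a 95% interval from -0.09 to 0.07 (limma adjusted p = 0.813). That interval lies below the changes of Kdr and Pecam1. Its dim second probe set (1422047_at) read 4.54, 4.70 and 4.62 against 4.49, 4.51 and 4.48, a change of -0.13 ± 0.05 (limma adjusted p = 0.0467). This was the only member probe set called lower, and the call was lost without control replicate 2 or 3 or any PFOS replicate (limma adjusted p from 0.0853 to 0.13).

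Taken within each array, a comparison that a constant shift of a whole array cannot move, Kdr rose above Cdh5 by 0.39 and Pecam1 above Cdh5 by 0.47. Quantile normalization is not such a shift and can move these differences. The same difference was 0.41 for Tcf21 over Nkx2-3, 0.27 for Tlx1 over Nkx2-3 and 0.34 for Kdr over Lyve1. In each of these 5 pairs the 3 PFOS arrays lay apart from the 3 control arrays. The exact two-sided permutation p was 0.1 for each and 0.1 after adjustment over the 5, the smallest that 3 arrays against 3 can give. The pairs were chosen with the changes known.

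The markers of particular vessel linings changed little. Madcam1, the adhesion molecule that sinus-lining cells of the spleen marginal zone and gut venules present to lymphocytes, read 8.14, 8.11 and 8.12 in control and 8.23, 8.22 and 8.25 in PFOS. The groups were apart by 0.09 at the nearest arrays. The change was 0.11 ± 0.03 (limma adjusted p = 0.0164), a 1.08-fold rise. The call was lost without control replicate 2 (limma adjusted p = 0.0519), control replicate 3 (0.0519) or PFOS replicate 3 (0.0574), and with ribosomal protein scaling, where the change was 0.0097.

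Lyve1, the hyaluronan receptor of lymphatic vessels and liver sinusoids, was near the dim end of the array. Its brighter probe set (1453128_at) read 5.13, 5.42 and 5.36 in control and 5.20, 5.36 and 5.49 in PFOS. The groups overlapped almost fully, and the arrays within a group spread over 0.29. The change was 0.04 ± 0.09 with a 95% interval from -0.17 to 0.26 (limma adjusted p = 0.728). The other probe set (1429379_at) read 4.36, 4.49 and 4.45 against 4.35, 4.38 and 4.33, a change of -0.08 ± 0.04 (limma adjusted p = 0.159). That probe set was called lower with quantile normalization (-0.11, limma adjusted p = 0.0402), with ribosomal protein scaling (-0.18, 0.0131) and without control replicate 1 (-0.11, 0.0434), and its sign turned with spike scaling (0.40).

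How the arrays were put on a common scale set how many of the 9 were called. The bacterial transcripts that serve as labelling controls averaged 6.29 ± 0.0038 (SD, n = 3) on control arrays. On PFOS arrays they averaged 5.81 ± 0.025, which is lower by a log2 difference written as -0.48 (exact two-sided permutation p = 0.1, the smallest 3 against 3 can give). Scaling the arrays on them moved the median change of all probe sets from 0.04 to 0.52. All 9 genes were then called higher, from 0.47 for Cdh5 to 0.97 for Tcf21, which is -0.05 and 0.45 relative to that median, and 92.5% of all genes were called higher with them. Scaling on ribosomal protein genes moved the median of all probe sets to -0.06, and 5 genes were then called higher (Tcf21, Pecam1, Kdr, Tlx1 and Wt1) and 1 lower (Cdh5, -0.11). Spike scaling adds 0.48 to every change and ribosomal protein scaling adds -0.10, so that by construction the order of the changes stays as deposited while smaller falls under the first and smaller rises under the second turn sign, here and in the lists that follow. Of all calls over the array, 61.0% were rises as deposited, 29.2% with ribosomal protein scaling and 96.4% with spike scaling.

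**Figure D3:**
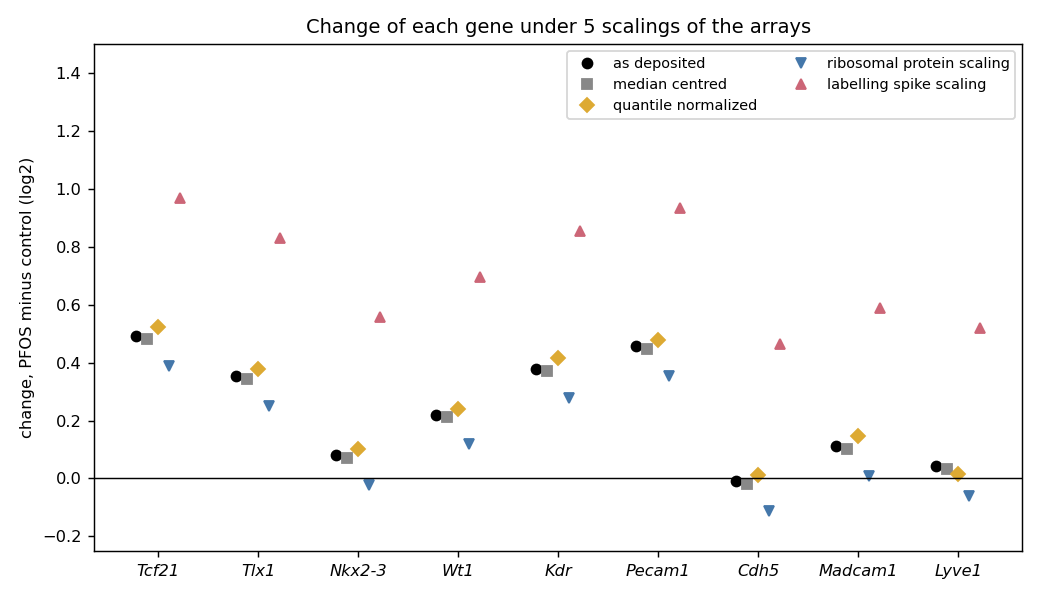
Change on the log2 scale (vertical axis) of each of the 9 genes at its brightest probe set under 5 scalings of the arrays. Spike scaling lifts and ribosomal protein scaling lowers all 9 by the same step by construction, so the order of the genes under these scalings is that of the deposited values.

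Other genes of spleen development were mixed as well. Of 15 measured organ factor genes, the 4 above included, 7 were called higher, 1 lower and 7 not (median 0.08), beside 32.9% higher over all genes. Without the 4, the count was 4 higher and 1 lower of 11. Those higher were Lta, Ltb, Ltbr and Relb, and Hoxa5 was lower (-0.20 ± 0.06). Nkx2-5, Nkx3-2, Barx1, Pbx3, Nr2f2 and Nfkb2 were not called. Lymphotoxin alpha and beta, the ligands through which lymphocytes organise spleen stroma, rose by 0.48 ± 0.04 (Lta; limma adjusted p = 5.65e-05) and 0.40 ± 0.03 (Ltb; 2.88e-05). Their receptor Ltbr rose by 0.18 ± 0.03 and the downstream NF-kB subunit Relb by 0.33 ± 0.04. Lta and Ltb are made mainly by lymphocytes, so these values are not levels of stromal cells. With spike scaling all 15 were called higher, and with ribosomal protein scaling 6 higher and 3 lower.

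Among 29 measured endothelial genes, 14 were called higher, 4 lower and 11 not, with a median of 0.10, beside 32.9% higher and 20.0% lower over all genes, the background for each list below. Without Kdr, Pecam1 and Cdh5 the count was 12 higher and 4 lower of 26. Sox17 and Sox18, transcription factors of arterial and developing vessels, rose by 0.47 ± 0.04 and 0.33 ± 0.03, and the adhesion molecule Icam2, also found on leukocytes, by 0.30 ± 0.03. Tal1 fell by 1.56 on the log2 scale, and it is at the same time a master factor of red cell precursors. The others called lower were Erg (-0.37 ± 0.08), Aplnr (-0.26 ± 0.03) and Eng (-0.13 ± 0.03). Erg had another probe set of opposite sign that was not called. Among VEGF and angiopoietin genes with their receptors, Kdr included, 5 of 15 were higher and 3 lower (median 0.09), shares near those of all genes. Without Kdr the count was 4 higher and 3 lower of 14 (median 0.06). The ligands Vegfb, Vegfd and Pgf changed by -0.30 ± 0.04, -0.32 ± 0.06 and -0.23 ± 0.05, and Angpt4 by 0.16 ± 0.04, with its other probe set called the opposite way. With spike scaling 27 of the 29 endothelial genes were called higher and 1 lower, and with ribosomal protein scaling 8 and 8.

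Of 14 sinusoid and marginal sinus genes, with Madcam1 and Lyve1 among them, 5 were called higher, 2 lower and 7 not (median 0.05, beside 0.05 for all genes). The mannose receptor Mrc1 rose by 0.36 ± 0.03 and Mfge8, which bridges dying cells to phagocytes, by 0.23 ± 0.03. Dnase1l3 rose by 0.20 ± 0.03, and its other probe set was called the opposite way. Ackr1, the Duffy chemokine receptor of venules and of red cells, fell by 1.39 on the log2 scale. With spike scaling 13 of the 14 were called higher and 1 lower, and with ribosomal protein scaling 2 and 5. In a list of 9 lymphatic endothelial genes, 6 were higher and 1 lower (median 0.19), and 3 had a mean under 5.62 in each group. Prox1 and Lyve1, both under 5.62 in every array, were not called. Thy1 (0.62 ± 0.03) and Fgl2 (0.47 ± 0.04) led it, both of which lymphocytes also make. Foxc2, a factor of lymphatic valves, was called higher but lay under 5.62 in every array, so the size of its change is not given. Reln, an extracellular glycoprotein, changed by -0.28 ± 0.04.

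Reticular stroma held genes that moved in both directions. Of 29 measured genes, 17 were called higher, 4 lower and 8 not (median 0.18). Vcam1, an adhesion molecule of stroma and red pulp macrophages, rose by 0.68 ± 0.03, and Tnfsf11, the cytokine RANKL, by 0.63 ± 0.03. Tnfsf11 lay under 5.62 in every control array, so the size of its rise is uncertain. Collagen Col3a1, by contrast, fell by 1.01 on the log2 scale (limma adjusted p = 4.76e-07). The collagens Col1a1 (-1.06 ± 0.09) and Col1a2 (-0.47 ± 0.03) were called lower too, but the collagen Col6a1 was called higher (0.19 ± 0.04). Cr2 (0.60 ± 0.03) and Cxcl13 (0.53 ± 0.03), with smaller adjusted p than Col1a1 and Col1a2, were also called higher. Spike scaling left 26 genes higher and 2 lower, and ribosomal protein scaling 12 and 9. Of 14 smooth muscle and pericyte genes, 3 were higher and 3 lower (median -0.02). In it the contractile genes Acta2 and Tpm2 changed by -0.25 ± 0.03 and -0.20 ± 0.04, and Tpm2 had another probe set called the opposite way. Abcc9, a channel subunit of pericytes, changed by 0.24 ± 0.04, and Lmod1 by 0.26 ± 0.05. Acta2 and Abcc9 each had another probe set of opposite sign that was not called. With spike scaling 14 of the 14 were called higher, and with ribosomal protein scaling 2 higher and 8 lower.

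Wt1 is also a marker of the mesothelium that covers the spleen. Of 14 mesothelial genes, Wt1 included, 7 were higher, 2 lower and 5 not called (median 0.12). Without Wt1 the count was 6 higher and 2 lower of 13 (median 0.08). A mean under 5.62 was found for 9 of the 14 in control and for 8 in PFOS. Upk3b and Efemp1 rose by 0.47 ± 0.06 and 0.46 ± 0.06, and Cpe by 0.25 ± 0.04. Upk3b lay under 5.62 in every control array, so the size of its rise is uncertain. The keratin Krt8, which hepatocytes share, changed by -0.80 ± 0.09. With spike scaling 13 were called higher and 1 lower, and with ribosomal protein scaling 4 and 3.

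**Figure D4:**
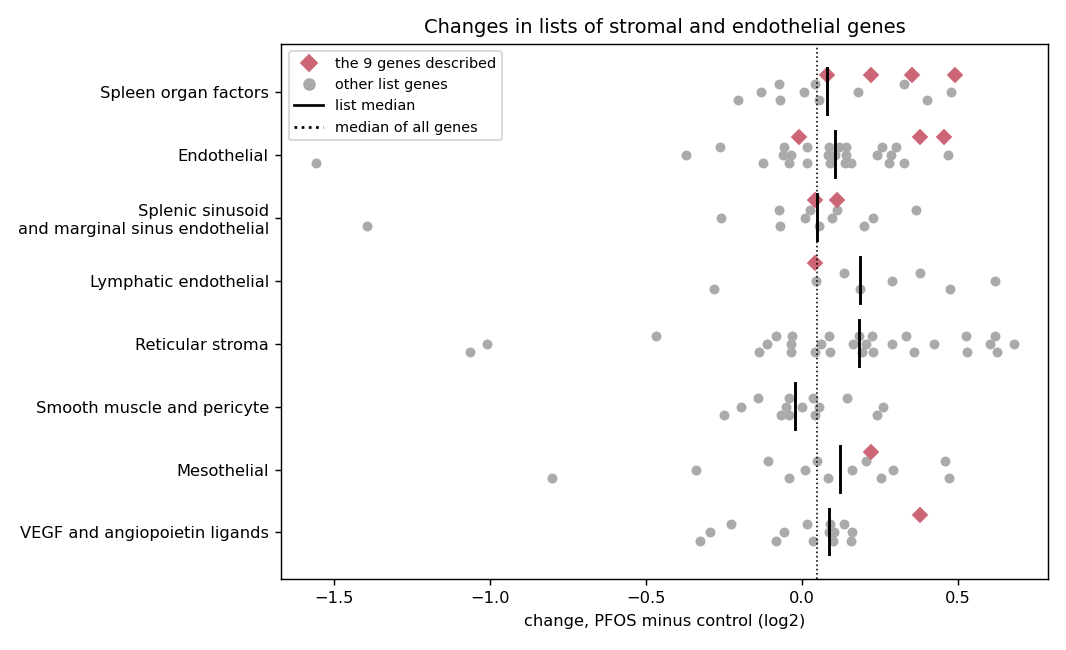
Change on the log2 scale (horizontal axis) of the genes in 8 lists of stromal and endothelial genes; red diamonds are the 9 genes described, grey points the other members, black bars the list medians and the dotted line the median of all genes (0.05). The list medians lie between -0.02 and 0.19, and some lists hold genes far to the left, such as Tal1, Ackr1, Col1a1 and Col3a1.

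Markers of several other cells moved with the groups. Hepatocyte genes were lower in 16 of 18 cases (median -2.89), and their mean level ran from 7.97 to 8.01 in control and from 5.33 to 5.35 in PFOS, where 11 of the 18 had a mean under 5.62. Alb, Apoa1, Apoc3 and Apoh, all plasma proteins of the liver, led that list, with Alb at -5.15 ± 0.04. The other probe set of Apoh had the opposite sign and was not called. Red cell precursor genes were lower in 12 of 12 cases (median -1.60), led by Kel, Klf1, Ank1 and Ermap, with a mean level of 10.79 to 10.80 in control and 9.32 to 9.33 in PFOS. Pancreatic acinar genes were lower in 10 of 12 cases (median -0.55), led by Clps, Cpb1, Cela1 and Ctrb1, with a mean level of 6.55 to 6.65 in control and 5.88 to 5.96 in PFOS. Of 14 red pulp macrophage genes, 12 were higher (median 0.32), led by Vcam1, Spic, Mertk and C1qc, with a mean level of 9.98 to 9.99 in control and 10.27 to 10.28 in PFOS. Of 8 adipocyte genes, 4 were higher and 1 lower (median 0.12). Of 12 platelet genes, which bear on Pecam1, 5 were higher and 1 lower (median 0.03, mean level 8.71 to 8.73 in control and 8.77 to 8.79 in PFOS). Ppbp changed by 0.29 ± 0.03, and Gp9, the 1 called lower, by -0.19 ± 0.03. The part of these cells in the changes of the 9 genes was not tested.

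The genes nearest to Tcf21, by the root mean square difference of control-centred values over the 6 arrays, were Tmem204 (0.010), Spi1 (0.013) and Gimap8 (0.013), out of 13100 genes compared. With this centring a small difference mainly reflects a change of like size, and variation in common within a group was not tested. Tmem204 changed by 0.50 ± 0.03, Spi1 by 0.49 ± 0.03 and Gimap8 by 0.48 ± 0.03. Spi1 is a transcription factor of myeloid and B cells and Gimap8 a lymphocyte GTPase.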

How the data were processed

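RNA of 6 spleens was hybridized to 6 Affymetrix Mouse430_2 arrays. The authors deposited log2 values made with RMA, per the submitters' processing notes; its version and any filter were not given in the sources used here. Of the 45101 probe sets, 64 array controls were left out, and 34945 of the rest had 1 gene symbol in the platform annotation, 932 several and 9160 none. Of those with 1 symbol, 34741 matched GRCm38.p6 by identifier, and 0 symbols changed.

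All 45037 other probe sets were fitted without a filter on low values by lmFit and eBayes of limma 3.58.1 under R 4.3.3. The contrast was PFOS minus control, tested two-sided, with p-values adjusted over all probe sets (Benjamini-Hochberg) and calls at an adjusted p under 0.05. A gene was read at its brightest probe set (highest mean of the 6 arrays), and changes carry limma's standard errors. Leaving the filter out kept every member in the test.

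The members, lists and tests were chosen with earlier results of these data known. The text names every member, up to 4 genes with the smallest adjusted p in each list, and the 3 genes nearest to the member with the largest change. Erg, Aplnr, Eng, Prox1, Col1a1, Col1a2, Col6a1, Cr2, Cxcl13, Hoxa5, Nkx2-5, Nkx3-2, Barx1, Pbx3, Nr2f2 and Nfkb2 were named in addition. Levels of control transcripts and within-array differences were compared with exact permutation tests in scipy 1.17.1. The fit was checked on simulated data. The replicates are labelled as biological; p-values measure only the spread between them, which may be technical. The number of arrays limits the precision. Alternatives covered replicate blocks, filter, scaling, priors, array weights, thresholds, probe set class and leaving out each array; the within-array comparison and list counts without members were added after seeing the data.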

Additional observations from a re-analysis of the deposited data

How the results depend on the processing

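Of 237 recomputed changes of the 14 probe sets, 181 kept their direction and side of the threshold, 35 lost a call, 11 gained one and 10 turned direction; Pecam1, Kdr, Tlx1, Wt1 and the brightest Tcf21 probe set lost theirs, among settings that tested them, only when a 2-fold change was asked for. Counts of member probe sets called (8 higher, 1 lower) became 5 and 4 with ribosomal protein scaling, 14 and 0 with labelling spike scaling, 5 and 0 at an adjusted p under 0.01, and 0 and 0 with a 2-fold minimum. Without _s_at, _x_at and _a_at probe sets, which drops Pecam1, Wt1 and Madcam1, 4 of 9 were higher. The count of lower probe sets was 0 with either filter, 2 with quantile normalization and 0 with trend and robust priors. Leaving out 1 array gave 5 to 7 higher, with 5 without PFOS replicate 3, and 0 to 2 lower. Genes called higher (6) became 0 with the 2-fold minimum and 3 of 6 without those probe set classes; genes called lower became 1 with ribosomal protein scaling. Direction turned with ribosomal protein scaling for Nkx2-3 1425827_at (-0.0227) and Lyve1 1453128_at (-0.0603), with quantile normalization for Cdh5 1433956_at (0.0104), and with spike scaling for Nkx2-3 1427741_x_at (0.4007), Lyve1 1429379_at (0.3986) and Cdh5 1433956_at (0.4658) and 1422047_at (0.3463). It also turned for Cdh5 1433956_at without control replicate 2 (0.0063; range over left-out arrays -0.0216 to 0.0063) and for Lyve1 1453128_at without control replicate 1 (-0.0439) or PFOS replicate 3 (-0.0264; range -0.0439 to 0.1176). The causes were not tested beyond what each scaling adds by construction.

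The main fit did not pair arrays by replicate number. Deviations of same-numbered arrays correlated at 0.23, 0.09 and 0.05, and 4 of 6 arrays correlated best with their own number. Whether arrays of the same number share a batch was not tested. Over all probe sets, 13880 were called higher and 8869 lower with the replicate block, beside 13599 and 8690 without it. With the replicate block, 8 member probe sets were higher and 1 lower, and 6 genes were higher and 0 lower, as without it.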
